A study of Mus musculus with 109 samples.

Results

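The comparison set retinas of wild-type (WT) C57BL/6J mice that had received interleukin 1 alpha and tumor necrosis factor together (IL1A+TNF) against retinas that had received PBS, each given into the vitreous and collected 2 days later. Members were taken from the sample labels (genotype WT, batch 1, day 2), which gave 41 of the 109 retinas of the series. There were 10 IL1A+TNF retinas from 10 mice (6 female, 4 male) and 31 PBS retinas from 31 mice (15 female, 16 male), all from animals aged 2 to 4 months. Both groups were labelled WT with no engineered allele named, and every retina of both groups had been injected. Of the 10 mice that received IL1A+TNF in 1 eye, 8 also contributed the PBS-injected fellow eye. The other PBS retinas lay opposite an IL1A eye (7), a TNF eye (8) or an eye with no library in the series (8). The study asked how these cytokines, alone or together, act on the retina, and the day 2 retinas show the early transcriptional response. Whole retinas were homogenised, and levels are shares of the counts of a library. A lower level of a cell type's genes can therefore come from fewer such cells, less RNA per cell or more RNA from other cells. These cannot be told apart.

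IL1A acts through its receptor IL1R1 and the adaptor MYD88, and TNF acts through TNFR1 and TNFR2, and both routes release NF-κB, which drives inflammatory genes together with its own inhibitors. In the retina these cytokines come largely from microglia and infiltrating myeloid cells, and they act on Müller glia, astrocytes, blood vessels and neurons. Interferon-response genes form a separate program that is read out through STAT and IRF factors.

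Each retina was a separate library, and no mouse gave more than 1 retina to a group, so p-values rest on the spread between mice. Total counts on genes lay between 30014757 and 45779899 per retina, and CPM below are counts divided by TMM-adjusted library sizes. On the first principal component, which held 32.7% of the variance, PBS retinas lay between −52.6 and 17.8 and IL1A+TNF retinas between 25.9 and 89.2. The retina itself was well represented, with summed rod markers of at least 28424 CPM in every retina. Neighbouring tissue differed between libraries: summed lens markers exceeded 1000 CPM in 3 PBS retinas and 2 IL1A+TNF retinas (numbers 2 and 6), and lay between 27.4 and 221 CPM elsewhere. Summed markers of the pigment epithelium ranged from 62.2 to 1300.0 CPM in PBS retinas (median 403) and from 23.1 to 577 CPM in IL1A+TNF retinas (median 143). Eye side was also unequal, with 8 of 10 IL1A+TNF retinas from right eyes and 20 of 31 PBS retinas from left eyes.

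At a false discovery rate (FDR) under 0.05 there were 9852 differentially expressed genes (DEGs), 50.4% of the 19548 genes tested, of which 4874 were higher (24.9% of the genes tested) and 4978 lower (25.5%). With library totals in place of TMM the split was 6881 higher and 3344 lower, so small changes depend on the scaling, and the median of all genes moved from −0.023 to 0.0495 on the log2 scale. Most changes were small, since 3144 of the higher and 3819 of the lower DEGs had a log2 fold change under 0.5 in size. Large changes were mostly increases, with 884 higher and 282 lower DEGs of at least 1 in size, 358 and 24 of at least 2, and 90 and 1 of at least 3. All 10 IL1A+TNF retinas lay above all 31 PBS retinas for 434 genes (2.22%) and below them for 78 genes (0.399%).

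**Figure D1:**
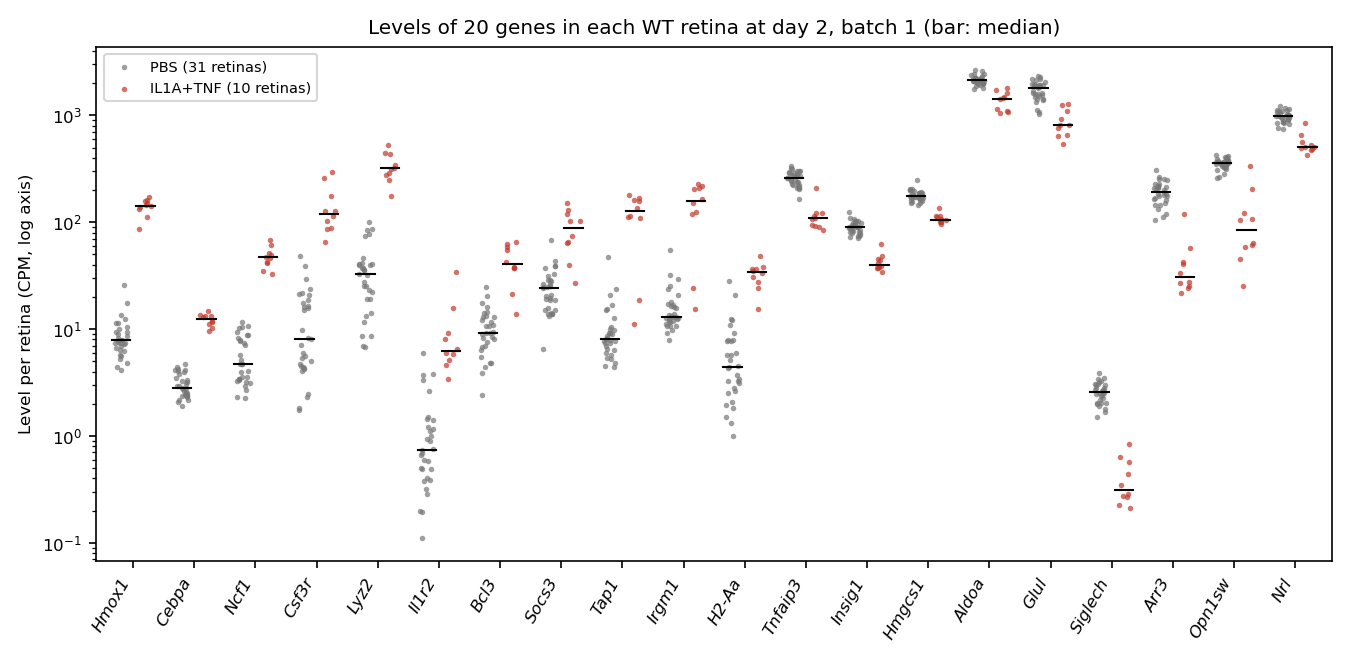
Level of 20 genes in each retina in CPM on a log axis, with PBS retinas in grey (31), IL1A+TNF retinas in red (10) and the median of each group as a bar. Hmox1, Cebpa, Ncf1 and Siglech do not overlap between the groups, while Tap1 and Irgm1 have 2 IL1A+TNF retinas within the PBS range.

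Hmox1, which encodes the inducible heme oxygenase that opens the heme ring and releases iron, had the smallest FDR. Its level ran from 4.16 to 25.6 CPM (median 7.82) in PBS retinas and from 86.1 to 171 CPM (median 143) in IL1A+TNF retinas, so that the lowest treated retina was above the highest PBS retina (log2 fold change 4.05, SE 0.20, FDR 9.97e-24). Ferroportin (Slc40a1), the iron exporter, ran from 4.95 to 8.01 CPM (median 6.53) and from 10.8 to 18.9 CPM (median 16.4), again with no overlap (log2 fold change 1.28, SE 0.08, FDR 5.73e-20). Of 19 heme and iron genes, 13 rose and 1 fell (median log2 fold change 0.72). The ferritin chains Ftl1 (1.44) and Fth1 (0.68), the ferroxidase Cp (1.21) and the phagosomal metal transporter Slc11a1 (1.91) rose, and the transferrin receptor Tfrc, which takes up iron, fell by 0.55 on the log2 scale (FDR 4.38e-11). The summed level of the list was at least 3066 CPM in every IL1A+TNF retina and at most 2450.2 CPM in every PBS retina.

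The other genes with the smallest FDR among those that rose were largely genes of myeloid cells. Cebpa, a transcription factor of the myeloid lineage, ran from 1.92 to 4.7 CPM (median 2.79) in PBS retinas and from 9.52 to 14.9 CPM (median 12.4) after IL1A+TNF (log2 fold change 2.03, SE 0.12, FDR 1.44e-20). Ncf1, a cytosolic subunit of the phagocyte NADPH oxidase, ran from 2.25 to 11.6 CPM (median 4.72) and from 32.6 to 68.4 CPM (median 46.8) (log2 fold change 3.11, SE 0.19, FDR 7.34e-20). Neither gene overlapped between the groups. Arl11 (2.62), the cyclooxygenase gene Ptgs1 (2.31), Cyp4f18 (2.72), Arhgap25 (2.38) and the phosphatase gene Inpp5d (1.68) rose with FDR of at most 4.27e-19, as did the pseudogene Gad1-ps (2.59), whose reads could be shared with Gad1. Gad1 itself, the GABA-synthesising enzyme of amacrine cells, was lower (−0.31, FDR 2.51e-07). The largest fold changes belonged to Gm12185 (4.72), the lysosomal phosphatase Acp5 (4.39), a gene without a symbol (ENSMUSG00000092215, 4.33), the lectin Clec4n (4.29), the sialic acid receptor Siglecf (4.20), Cd101 (4.14), Cd300lb (4.10), Apoc2 (4.04) and the interferon-inducible Gm12250 (4.00). These started from low levels, with a median of at most 0.783 CPM in PBS retinas for each of them.

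Receptors and adaptors of both cytokines were among the genes that rose. Of 16 genes for IL1 ligands, receptors, decoys and adaptors 13 rose and none fell, with the decoy receptor Il1r2 (3.17), Il1b (2.82) and the receptor antagonist Il1rn (1.78) well above the signalling receptor Il1r1 (0.39) in log2 fold change. Irak3 (1.70), which restrains signalling from the receptor complex, Irak4 (1.06) and Myd88 (1.15) rose as well. Il1r2 ran from 0.111 to 6.03 CPM (median 0.738) in PBS retinas and from 3.4 to 34.2 CPM (median 6.2) after IL1A+TNF, and 5 of 10 treated retinas lay above every PBS retina. Of 11 genes of the TNF list, 9 rose and 1 fell, with TNFR2 (Tnfrsf1b, 1.91), TNFR1 (Tnfrsf1a, 0.91) and Ripk1 (0.98) higher and Traf5 lower (−0.19). Transcripts of Tnf itself remained scarce, at 0.841 ± 0.285 CPM (SD, n = 10) against 0.171 ± 0.108 CPM (SD, n = 31; log2 fold change 2.32).

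Genes of a list for NF-κB feedback did not move together. Of its 13 genes 10 rose, and Tnfaip3, which encodes the deubiquitinase A20, fell. Tnfaip3 ran from 167 to 336 CPM (median 259.6) in PBS retinas and from 84.8 to 209.9 CPM (median 109) after IL1A+TNF (log2 fold change −1.20, SE 0.09, FDR 4.11e-16), and 9 of 10 treated retinas lay below every PBS retina. It was lower in 8 of 8 mice when the treated eye was set against its PBS fellow eye, and in batch 2 the log2 fold change was −1.19 (FDR 0.000316). Bcl3, an atypical IκB protein, ran from 2.42 to 24.6 CPM (median 9.25) and from 13.9 to 65.4 CPM (median 40.4) (log2 fold change 2.08, SE 0.20, FDR 4.82e-13), and Birc3 (1.77) and Nfkbia (0.34), which encodes IκBα, also rose. Of 9 genes for NF-κB subunits and IκB kinases 6 rose, among them Ikbke (2.23) and Rela (0.40), and Ikbkg was lower by 0.14 on the log2 scale, a call that was lost with library totals.

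Stretches of the promoters of Bcl3 and Tnfaip3, which moved in opposite directions, are given because both hold the letters GGNNTTTCC of an NF-κB site or their reverse complement. The match nearest the start site is in capitals, on the gene's strand 5′ to 3′ (RefSeq, GRCm38.p6). The Bcl3 stretch lies at chr7:19822836-19822874 and the Tnfaip3 stretch at chr10:19015411-19015437, both upstream of the start site on the minus strand. The Tnfaip3 promoter held 2 matches before its start site, and the other stands in lower case in the stretch shown.
Bcl3: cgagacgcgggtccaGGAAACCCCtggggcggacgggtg
Tnfaip3: actggaatttccatcGGAAATCCCcct
These letters were looked for on either strand in windows of 250 bases before to 50 bases after a start site. They occurred in 4 of the 12 genes of the NF-κB feedback list that had a RefSeq promoter. Of the 634 genes that rose by at least 1 on the log2 scale and had a promoter there, 12.1% held them. Of all 12991 tested genes with a promoter, 7.1% held them. A match of letters is a description of the window and not a measured site.

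Of 17 genes for cytokines, receptors and inhibitors of the gp130 and STAT3 route, 10 rose and 3 fell. Socs3, the feedback inhibitor of STAT3, ran from 6.52 to 68.9 CPM (median 24.2) in PBS retinas and from 27 to 152 CPM (median 88.1) after IL1A+TNF (log2 fold change 1.77, SE 0.21, FDR 2.14e-10), with some overlap. Stat3 (0.74), the receptor chains Il6ra (2.27) and Osmr (0.75) rose, whereas the CNTF receptor Cntfr (−0.34, FDR 6.37e-08) and Pias1 (−0.18, FDR 1.17e-08) fell. Lif, a ligand made by Müller glia after injury, was not called (0.54, FDR 0.07), but was called higher with library totals (FDR 0.0412), with sample quality weights, without the fellow-eye PBS retinas and without retina 4, 7 or 9.

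Chemokine genes, which guide leukocytes into tissue, were a mixed group. Of 16 CC chemokines 9 rose and 1 fell, and 5 were called higher in the paired fit, which sets each treated eye against the PBS fellow eye in the 8 mice that gave both. They included Ccl6 (3.15, 4.04 ± 3.26 against 35.5 ± 30 CPM, SD, n = 31 and 10) and Ccl9 (1.68), which were higher, and the epithelial chemokine Ccl27a, which was lower (−0.22). Ccl2, the monocyte attractant, was called (1.06, FDR 0.00608) but reached only 2.8 ± 1.56 CPM, and it lost its call with edgeR, DESeq2, the paired fit and without the lens-rich retinas. Of 12 CXC chemokines 5 rose (3 in the paired fit) and 1, Cxcl14, fell (−0.33, FDR 7.27e-05). The neutrophil attractants Cxcl1 and Cxcl2 had log2 fold changes of 1.52 and 1.35 from limma and of −0.45 and −0.40 in the 8 mice with a PBS fellow eye, so their direction was not settled. Among adhesion genes of the vessel wall and of leukocytes 9 of 11 rose, with P-selectin (Selp, 2.94), its ligand Selplg (1.54) and Icam1 (0.89) higher and Jam2 lower (−0.35). Mmp9, a matrix protease carried by neutrophils, rose by 2.30 on the log2 scale (FDR 5.3e-19) and its inhibitor Timp1 by 1.85 (FDR 7.52e-11).

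Markers of neutrophils and monocytes were among the genes that rose furthest. Csf3r, the G-CSF receptor of neutrophils, ran from 1.76 to 48.2 CPM (median 8.15) in PBS retinas and from 65.1 to 296 CPM (median 120.2) after IL1A+TNF (log2 fold change 3.79, SE 0.29, FDR 1.87e-16), with no overlap. S100a8 (3.92), S100a9 (3.59) and Cxcr2 (3.78) rose in parallel, and 8 of 11 tested neutrophil genes rose in all. The granule genes Ltf and Ngp, made mainly in immature neutrophils, were not called. Ltf stood at 0.402 and 0.418 CPM on average (0.81, FDR 0.157, called at 1.15 with the pigment epithelium term), Ngp at 0.193 and 0.142 CPM (−0.34, FDR 0.458), and Mpo and Elane did not pass the filter on low counts. The neutrophil marker Ly6g, which is not a granule gene, did not pass it either. Lyz2, the lysozyme of macrophages and neutrophils, ran from 6.76 to 101 CPM (median 32.5) and from 176 to 525 CPM (median 319) (log2 fold change 3.49, SE 0.41, FDR 2.04e-10). Of 16 monocyte and macrophage genes 14 rose, including the chemokine receptor Ccr2 (3.32), Chil3 (3.64), F13a1 (2.56), Cd68 (2.06) and Adgre1 (2.10), and the summed level of the list did not overlap between groups (126 to 367 against 543 to 1353 CPM). Of 14 T and NK cell genes only 3 passed the filter on low counts, and the CD3 chains were not among them. Of 5 tested hemoglobin and other erythrocyte genes none was called in either direction, but the paired fit called 3 higher, with summed levels of 10.6 to 32.7 CPM in PBS and 12.1 to 30.01 CPM in IL1A+TNF retinas.

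Sensors of microbial and damage signals rose broadly. All 15 tested Toll-like receptor and adaptor genes rose (median log2 fold change 1.59), with the endosomal receptors Tlr13 (2.57) and Tlr7 (1.99) and their chaperone Unc93b1 (2.13) having the smallest FDR of the list. Of 14 inflammasome and pyroptosis genes 11 rose, with Naip5 (2.06), Nlrp1b (2.49), Nlrp3 (2.16) and the pore former Gsdmd (1.35) higher. Of 20 complement genes 14 rose. Receptors of myeloid cells rose most, such as Itgb2 (2.58) and C3ar1 (2.29), followed by the C1q chain C1qa (1.29) and C3 (1.10), whereas C4b (−0.33, FDR 0.0188) and C2 (−0.52, FDR 0.0253) were lower. Both of these calls were lost with library totals (FDR 0.0712 and 0.0568), without the lens-rich retinas and with the pigment epithelium sum as a term in the fit, where the log2 fold changes were −0.01 and 0.03. C2 also lost its call in the paired fit (FDR 0.0528). C4b lost it without retina 1 or 2. C2 lost it without retina 7 or 10 and with a term for left or right eye (FDR 0.0637).

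**Figure D2:**
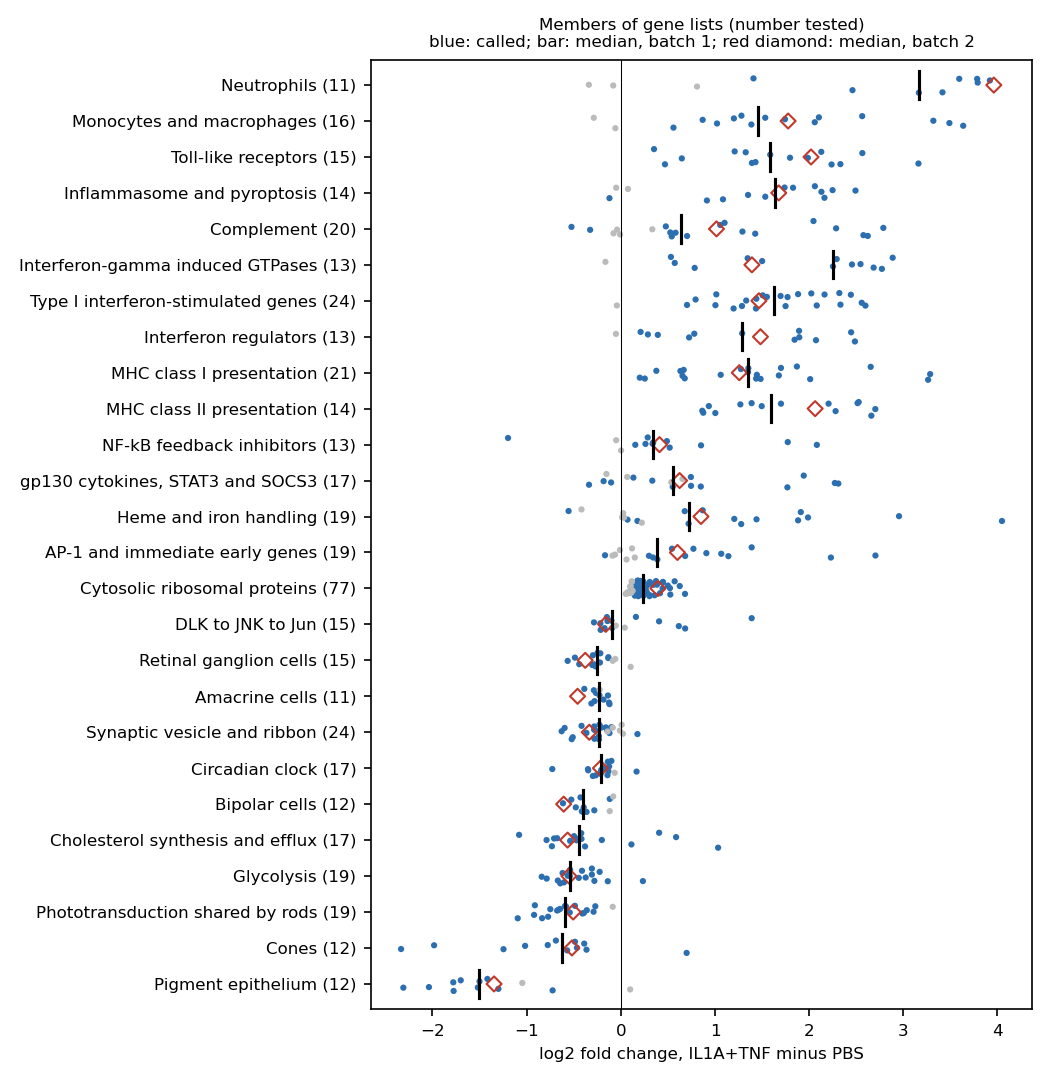
Log2 fold change of each tested member of 26 gene lists, IL1A+TNF minus PBS, with DEGs in blue and other genes in grey, the median of batch 1 as a black bar and that of batch 2 as a red diamond. Immune lists lie to the right of 0 and photoreceptor, glycolysis and cholesterol lists to the left, and the medians of both batches have the same sign in every list shown.

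Interferon-response genes formed a large block. Of 24 genes induced by type I interferon 23 rose (median log2 fold change 1.62), among them the antiviral GTPase Mx2 (2.60), the ISG15 protease Usp18 (2.56) and Ifit2 (1.55). Of 13 GTPases induced by interferon gamma 12 rose (median 2.25), among them Irgm1 (2.89), Igtp (2.77) and Irgm2 (2.55). Among regulators 12 of 13 rose. Irf8, an interferon regulatory factor of myeloid cells, ran from 3.02 to 11 CPM (median 4.96) in PBS retinas and from 8.11 to 54.1 CPM (median 32) after IL1A+TNF (log2 fold change 2.45, SE 0.20, FDR 1.35e-15), and Irf1, which interferon gamma induces, rose too (log2 fold change 2.07, SE 0.18, FDR 2.02e-14). The ligand genes Ifng and Ifnb1 did not pass the filter on low counts. Irgm1 ran from 7.98 to 55 CPM (median 13.1) and from 15.5 to 226 CPM (median 158), and 2 of the 10 treated retinas lay within the PBS range.

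All 9 of these GTPase genes that had a promoter in the RefSeq table held the letters GAAANNGAA of an interferon-stimulated response element, or their reverse complement, against 8.74% of the 12991 tested genes with a promoter and 20.2% of the 634 such genes that rose by at least 1 on the log2 scale. The match nearest the start site and 15 bases on each side are shown on the gene's strand, 5′ to 3′, with the match in capitals (GRCm38.p6). They lie on chromosomes 11 and 3, with the match between 24 and 136 bases before the start site, for example at chr11:48871421-48871459 for Irgm1 and chr3:142530269-142530307 for Gbp7.
Irgm1: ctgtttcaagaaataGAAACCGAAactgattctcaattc
Irgm2: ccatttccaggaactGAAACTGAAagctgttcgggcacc
Igtp: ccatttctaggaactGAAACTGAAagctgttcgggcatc
Tgtp1: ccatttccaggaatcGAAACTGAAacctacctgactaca
Tgtp2: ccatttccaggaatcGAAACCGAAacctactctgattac
Gbp7: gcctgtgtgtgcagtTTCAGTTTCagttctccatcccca
Gbp3: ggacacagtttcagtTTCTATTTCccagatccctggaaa
Gbp2: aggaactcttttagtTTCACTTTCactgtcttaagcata
Gbp2b: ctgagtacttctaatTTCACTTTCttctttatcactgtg
Gbp2b held the letters and was not called (−0.16, FDR 0.305), and the paired fit called it lower (−0.51, FDR 0.0163). The GTPase genes resemble each other closely, so the counting could have split reads among them. The corresponding share was 11 of 17 for the type I interferon list, 5 of 18 for MHC class I presentation and 1 of 9 for MHC class II presentation.

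Antigen presentation rose in both classes, by different amounts in different retinas. All 21 genes of MHC class I presentation rose (median log2 fold change 1.35), led by the peptide transporter Tap1, the transactivator Nlrc5 (3.26) and the immunoproteasome subunit Psmb9 (2.65), and with Tapbp (1.68) and B2m (1.06) higher as well. Tap1 ran from 4.44 to 47.6 CPM (median 8.12) in PBS retinas and from 11.1 to 180.0 CPM (median 126) after IL1A+TNF (log2 fold change 3.29, SE 0.32, FDR 3.25e-13). All 14 genes of MHC class II presentation rose (median 1.60). H2-Aa ran from 1 to 28.4 CPM (median 4.39) and from 15.3 to 48.7 CPM (median 34.4) (log2 fold change 2.703, SE 0.41, FDR 1.26e-07), the invariant chain Cd74 rose by 2.51 and the transactivator Ciita by 0.88 on the log2 scale. The H2 genes are similar in sequence, and reads could have been split among them.

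The level of interferon genes differed among the treated retinas. Summed type I interferon-response genes ranged from 143 to 436 CPM in PBS retinas, and 8 of the 10 IL1A+TNF retinas lay between 748 and 1266 CPM. The other two, retina 4 (298 CPM) and retina 9 (205 CPM), lay within the PBS range. The same retinas were the lowest of the 10 in GTPases (139 and 98.9 CPM) and in MHC class I presentation (1380.2 and 1123 CPM). Set against its own PBS fellow eye, retina 4 was higher in type I genes (298 against 209.9 CPM), GTPases (139 against 85.4 CPM) and MHC class I (1380.2 against 924 CPM). Retina 9 was not higher than its fellow eye in type I genes (205 against 221 CPM) or GTPases (98.9 against 116 CPM) and stood at 1123 against 1033 CPM in MHC class I. The monocyte markers of both (929 and 543 CPM) lay above every PBS retina (at most 367 CPM). Retina 9 was nevertheless the lowest of the 10 in monocyte markers, Toll-like receptor genes (75.4 CPM), CC chemokines (55.0 CPM) and AP-1 genes (309 CPM). Retina 4 was not the lowest in any of these. On the first principal component retinas 4 and 9 were the lowest of the 10 (45.1 and 25.9), so their difference was not confined to interferon genes. In MHC class II presentation retina 4 was the highest of the 10 (346 CPM) and retina 9 stood at 228 CPM. Rod markers were highest in these retinas, at 40692 and 49446 CPM against 28424 to 37330.5 CPM in the other 8. The retinas came from a male and a female mouse, both right eyes, with total counts of 45779899 and 43279340.

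**Figure D3:**
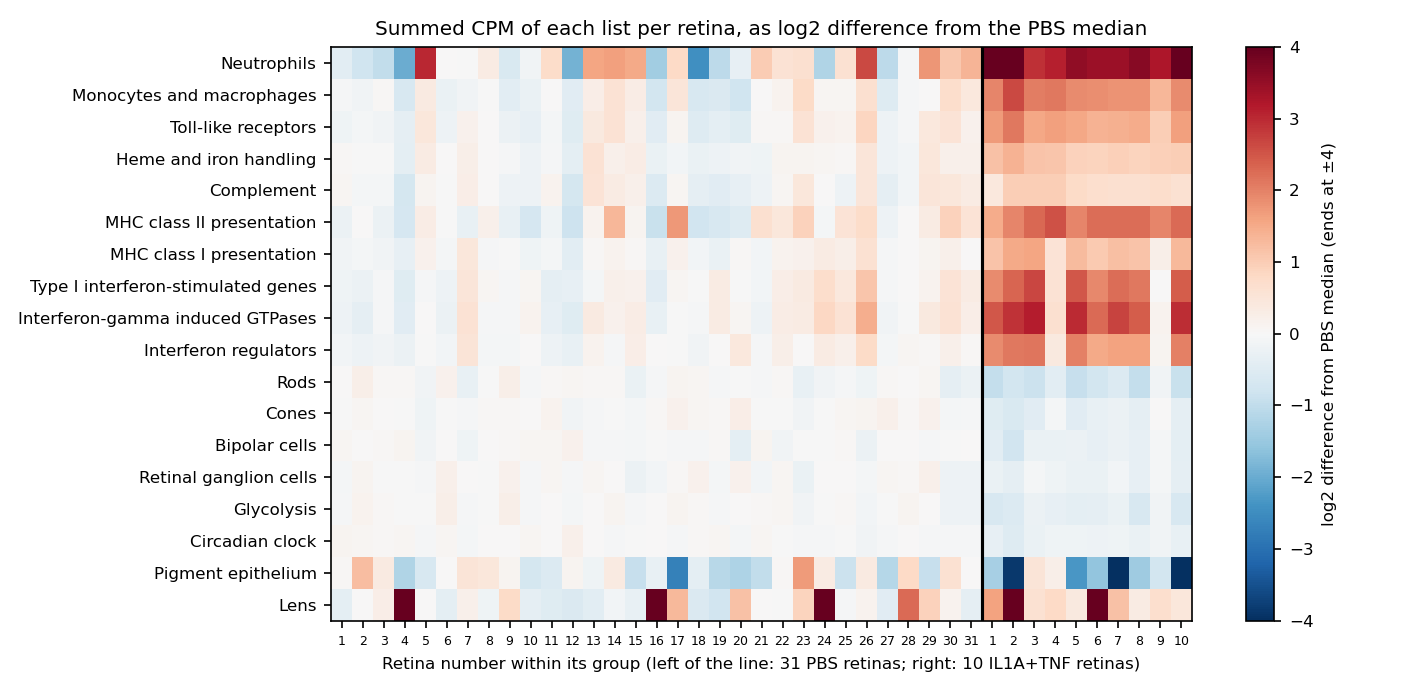
Summed CPM of 18 gene lists in each retina as the log2 difference from the median of the PBS retinas, with 31 PBS retinas left of the line and 10 IL1A+TNF retinas right of it, and colours ending at ±4. Retinas 4 and 9 of the IL1A+TNF group are red for neutrophils, monocytes and MHC class II and pale for interferon genes, and the lens row is dark red in 3 PBS and 2 IL1A+TNF retinas.

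Among 12 genes of homeostatic microglia 6 rose and 3 fell, the latter close to the share of lower genes over all tested (25.5%), and in the paired fit and in batch 2 only 1 was called lower. Siglech, a receptor of resting microglia, ran from 1.51 to 3.84 CPM (median 2.58) in PBS retinas and from 0.21 to 0.831 CPM (median 0.313) after IL1A+TNF (log2 fold change −2.72, SE 0.24, FDR 1.59e-14), with no overlap, while Csf1r (1.24), P2ry13 (1.53) and Selplg rose. Sall1 (−0.46, FDR 0.000988) and Tmem119 (−0.35, FDR 0.0148) were lower, and both calls were lost in the paired fit (FDR 0.404 and 0.138). Of 16 disease-associated genes 13 rose, among them Tyrobp (2.62) and Csf1, and Cst7 was not called (0.09, FDR 0.681). Gpnmb, which pigment cells also express, had a log2 fold change of −0.28 (FDR 0.581), and of 1.17 (FDR 1.86e-06) with the pigment epithelium sum as a term in the fit.

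Glul, the glutamine synthetase of Müller glia, ran from 1031 to 2357 CPM (median 1786) in PBS retinas and from 537 to 1266 CPM (median 813) after IL1A+TNF (log2 fold change −0.99, FDR 3.22e-11). Rlbp1, which serves the visual cycle there, fell by 0.70, whereas the intermediate filament genes Gfap (1.44) and Vim (0.87) and the potassium channel Kcnj10 (0.48) rose. Of 16 Müller glia genes 6 rose and 4 fell, against 24.9% and 25.5% of all genes tested, and the water channel Aqp4 was not called (−0.13, FDR 0.169). Of 13 genes of reactive astrocytes 10 rose and 0 fell. Among them Steap4 (1.88) rose and Serpina3n was not called (0.18, FDR 0.705), although Serpina3n was called at 1.32 with the pigment epithelium term. Metallothionein Mt2 (1.29) and glutathione reductase Gsr (0.94) rose, and of 19 NRF2 target genes 11 rose and 2 fell. The summed level of that list was above every PBS retina in only 1 of the 10 treated retinas. Nqo1 was called lower, and lost its call in the paired fit (FDR 0.172). It also lost it without the lens-rich retinas (FDR 0.055) and with the pigment epithelium term (FDR 0.802).

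Stress and death genes changed in both directions. Among 19 AP-1 and immediate early genes 12 rose, with Egr2 (2.23), Atf3 (1.39), Junb (1.14) and Jun (0.68) higher. Of 15 genes of the cascade from the kinase DLK to JNK and Jun 5 rose and 8 fell, against 24.9% and 25.5% of all genes tested. The genes that fell were kinases and scaffolds, such as DLK itself (Map3k12, −0.28, FDR 3.98e-11) and JNK2 (Mapk9, −0.21, FDR 2.06e-08), and those that rose were transcription factors and targets, such as the BH3-only genes Bcl2l11 (0.41) and Bbc3 (0.62). With library totals 4 genes of this list were called lower instead of 8. Pmaip1 (2.19) and Casp8 (1.15) rose, as did the necroptosis genes Mlkl (1.96) and Ripk3 (1.83), both at most 2.12 CPM on average. Of 22 genes of apoptosis and the BCL2 family 14 rose and 3 fell. Of 8 genes for death receptors and caspase-8 6 rose, or 4 without the lens-rich retinas. Of 8 necroptosis genes 5 rose and 3 were not called, and their summed levels overlapped (344 to 383 CPM in PBS and 369 to 407 CPM in IL1A+TNF retinas). Xiap, an inhibitor of caspases, ran from 502 to 839.9 CPM (median 689.8) in PBS retinas and from 339 to 609 CPM (median 371) after IL1A+TNF (log2 fold change −0.78, SE 0.07, FDR 2.48e-14), whereas Mcl1, which protects cells, rose (0.65).

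Retinal ganglion cell (RGC) markers were lower by small amounts. Of 15 such genes 12 fell and none rose (median log2 fold change −0.25, against a median of −0.023 over all genes tested), and with library totals 9 were called lower and 1 higher. Rbpms2 ran from 15.2 to 25.6 CPM (median 21.3) in PBS retinas and from 12.7 to 20.02 CPM (median 14.8) after IL1A+TNF (log2 fold change −0.49, SE 0.07, FDR 5.39e-09), and Rbpms (−0.30), Pou4f2 (−0.44), Thy1 (−0.30) and Nefl (−0.27) fell, with Gap43 not called (0.10, FDR 0.185) except with library totals, where it was higher (0.18). Genes induced in injured axons rose from low levels, such as Ecel1 (1.93, 0.759 ± 0.303 against 2.83 ± 0.766 CPM, SD, n = 31 and 10), Sox11 (1.14) and Gal (1.80). Nmnat2 (−0.33) and Sarm1 (−0.27), whose products protect and destroy axons, were both lower. Amacrine markers fell in 10 of 11 genes, led by the glycine transporter Slc6a9 (−0.39), and bipolar markers in 10 of 12, among them Vsx1 (−0.61) and Isl1 (−0.41). Synaptic and channel genes went the same way: 18 of 24 synaptic vesicle and ribbon genes, 21 of 28 receptors for GABA, glycine and glutamate, and 16 of 23 potassium channel genes fell. Rims2 (−0.63), the GABA receptor Gabrr1 (−0.42) and the photoreceptor channel Kcnv2 (−0.60) were among them, while Gria1 (0.29) was called higher.

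Photoreceptor genes were lower in both rods and cones. Nrl, the transcription factor that sets rod fate, ran from 747 to 1225 CPM (median 984) in PBS retinas and from 429.8 to 845 CPM (median 503) after IL1A+TNF (log2 fold change −0.85, SE 0.07, FDR 3.77e-15), and 9 of 10 treated retinas lay below every PBS retina. Of 19 rod phototransduction genes 18 fell (median log2 fold change −0.59), including Pdc (−1.09) and Gnat1 (−0.77), but arrestin Sag was not called (−0.09, FDR 0.331). Cone genes fell in 11 of 12 cases. Arr3, the cone arrestin, ran from 106 to 308 CPM (median 190.3) and from 21.7 to 119 CPM (median 30.5) (log2 fold change −2.33, SE 0.17, FDR 3.55e-17), and the short-wavelength opsin Opn1sw ran from 261 to 428 CPM (median 358) and from 25.2 to 333 CPM (median 85.1) (log2 fold change −1.98, SE 0.18, FDR 3.33e-14). Opn1mw (−1.25), Gnat2 (−1.02) and the cone-enriched receptor Thrb (−0.36) fell by smaller amounts, and the cone transducin beta chain Gnb3, which ON bipolar cells share, rose (log2 fold change 0.70, SE 0.08, FDR 7.76e-11). Summed rod markers were 42890.1 to 65068 CPM in PBS and 28424 to 49446 CPM in IL1A+TNF retinas, and with the pigment epithelium sum as a term 11 of 12 rod and 11 of 12 cone markers were still called lower.

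Genes of glycolysis, on which photoreceptors rely, were lower almost throughout. Of 19 such genes 18 fell (median log2 fold change −0.54) and only Hk1 rose (0.23, FDR 0.000118). Aldoa ran from 1777 to 2638 CPM (median 2127) in PBS retinas and from 1063 to 1806 CPM (median 1431) after IL1A+TNF (log2 fold change −0.64, FDR 4.96e-11), and Gpi1 (−0.54), Pkm (−0.55) and the photoreceptor hexokinase Hk2 (−0.79) fell with it. The hypoxia-regulated Vegfa fell by 0.57 on the log2 scale (FDR 4.1e-13). Among subunits of oxidative phosphorylation 2 of 73 nuclear genes rose and 13 fell. With library totals 13 rose and 3 fell, and in the paired fit 6 rose and 2 fell, so no direction can be given for the nuclear genes. Of 13 mitochondrially encoded subunits 11 fell and 0 rose (median log2 fold change −0.23). Of these subunits 8 fell with library totals, 6 in the paired fit and 7 in batch 2, and 0 rose in each. Their summed levels overlapped between the groups. Cytosolic ribosomal protein genes rose in 68 of 77 cases (median 0.23), among them Rps2 (0.63).

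Sterol genes included some of the smallest FDR among the genes that fell. Insig1, a sensor that retains SREBP in the endoplasmic reticulum and is itself an SREBP target, ran from 71.6 to 126 CPM (median 90.5) in PBS retinas and from 34.5 to 62.8 CPM (median 39.8) after IL1A+TNF (log2 fold change −1.08, SE 0.08, FDR 8.53e-18), with no overlap. Stard4, a sterol carrier, fell by 0.65 (FDR 1.68e-16). Of 17 genes of cholesterol synthesis, uptake and efflux 13 fell and 4 rose. Those that fell made or took up cholesterol, such as the synthase gene Hmgcs1 (−0.71), and those that rose included the exporter Abca1 (log2 fold change 1.03, SE 0.09, FDR 1.94e-14) and Apoe (0.41). The Hmgcs1 promoter held the sterol element letters TCACNCCAC, shown in capitals (GRCm38.p6, chr13:119690199-119690237, plus strand), letters found in 1.44% of the promoters of tested genes and in 1 of 10 genes of this list.
Hmgcs1: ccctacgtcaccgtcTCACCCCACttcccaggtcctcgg
The other genes with the smallest FDR among those that fell were Ttc8 (−0.46), a subunit of the ciliary BBSome, Fam53b (−0.57), A930004D18Rik (−0.61), the autophagy receptor Optn (−0.71), Rabgef1 (−1.48), Fam3c (−1.07) and the transcription factor Mef2c (−0.84). For all 10 of these genes, Insig1, Arr3 and Stard4 included, the treated eye was lower than its PBS fellow eye in 8 of 8 mice.

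The lowest fold changes belonged to Glb1l3 (−3.05), Siglech, Gm16055 (−2.47), Arr3, the pigment epithelium gene Rgr (−2.31), Krt14 (−2.24), Gm11961 (−2.08), Spc25 (−2.08), Krt5 (−2.07) and Gm15507 (−2.06). Krt5 and Krt14, keratins of surface epithelium, varied widely among PBS retinas, with medians of 1.32 and 0.928 CPM and highest values of 14.5 and 14.2 CPM. Both calls were lost with the pigment epithelium term (FDR 0.195 and 0.165) and without the lens-rich retinas, Krt14 also lost its call without retina 1 or 6, and neither was called in batch 2 (FDR 0.503 and 0.497). Pigment epithelium genes were called lower in 10 of 12 cases (median log2 fold change −1.51), although their summed levels overlapped widely, and in batch 2 only 2 of 12 were called (median −1.35). Prostaglandin D synthase Ptgds (−1.06, FDR 0.00115) was called lower and had −0.04 with the pigment epithelium sum as a term. Whether the amount of attached pigment epithelium or lens played a part in other genes was not tested beyond these alternatives, under which 9601 and 8376 genes were called. Of 17 circadian clock genes 15 fell by small amounts (median −0.21), led by Rorb (−0.73, FDR 6.43e-14), a clock-related receptor that photoreceptors need. Endothelial genes rose in 7 of 10 cases, such as Cldn5 (0.67) and Kdr (0.47). Of 20 cell cycle genes 12 rose, such as Mcm6 (0.58), and 1 fell, and in batch 2 only 7 of 20 were called higher. The summed level of the cell cycle list was above every PBS retina (at most 257 CPM) in only 1 treated retina, number 2 (306 CPM).

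The treatment was repeated in other WT mice in batch 2, with 6 IL1A+TNF and 5 PBS retinas. There, 7135 of 18920 genes were called (37.7%), 3711 higher (19.6%) and 3424 lower (18.1%). Of the 9749 DEGs of batch 1 that were tested in batch 2, 9606 (98.5%) had the same direction, against 74.4% of the genes not called in batch 1. The DEGs called in the same direction in both batches numbered 6414, which is 65.8% of the batch 1 list and 90.2% of the batch 2 list, and none was called in opposite directions. Of DEGs of at least 1 in size, 1014 of 1104 were called the same way. Hmox1 (4.11), Tap1 (2.85), Arr3 (−2.32), Siglech (−2.81) and Insig1 (−1.24) had log2 fold changes close to those of batch 1.

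**Figure D4:**
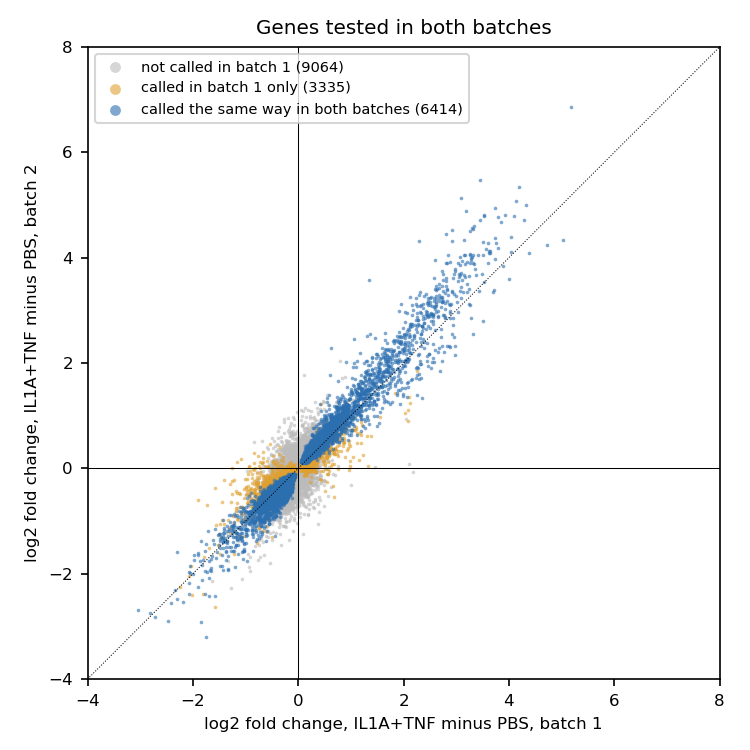
Log2 fold change of each gene tested in both batches, IL1A+TNF minus PBS, batch 1 on the horizontal and batch 2 on the vertical axis, with a dotted line of equality. The 6414 genes called the same way in both (blue) lie near the line, the 3335 called in batch 1 only are orange, and the 9064 genes not called in batch 1 (grey) lie around 0.

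The limma fit called no gene for a response to IL1A+TNF that differed between the sexes, with 6 female and 4 male treated retinas. A test of sex by treatment called 0 of 19548 genes (0%, smallest FDR 0.736, 1265 genes at an unadjusted p under 0.05), and edgeR called 1, with 1092 at an unadjusted p under 0.05. PBS retinas opposite an IL1A+TNF eye (8) were set against those opposite an IL1A or TNF eye (15), and 0 of 18546 genes (0%) were called, with 788 at an unadjusted p under 0.05 and 0 called by edgeR (756). Summed neutrophil markers reached 140.1 CPM in 1 PBS retina, the fellow eye of treated retina 2, which was itself the highest of all (805 CPM), and 109 CPM in another PBS retina opposite an IL1A eye, against a PBS median of 17.4 CPM.

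Set directly against retinas given IL1A alone (9), IL1A+TNF retinas differed in 1968 genes (10.1%), and against TNF alone (8) in 7618 genes (39.0%). Of 24 type I interferon genes 19 were higher in IL1A+TNF retinas, as were 15 of 21 MHC class I genes, and Tap1 differed by 1.86 on the log2 scale (FDR 0.000658). Neutrophil genes (0 of 11) and MHC class II genes (0 of 14) were not called in that comparison. Glycolysis genes were lower in 14 of 19 cases, cholesterol genes in 10 of 17, rod phototransduction genes in 13 of 19 and cone genes in 9 of 12, with Arr3 differing by −1.001 (FDR 0.00117), and Hmox1 was higher by 1.68 (FDR 2.45e-06). These comparisons share the IL1A+TNF retinas with the one above and are not independent of it.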

How the data were processed

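Total RNA of whole mouse retinas was made into mRNA libraries and sequenced by the authors. The deposited table holds raw counts per gene and retina, which the authors had made with STAR 2.7.9a and featureCounts of Subread 2.0.1 on mm10 according to the submitters' processing notes. The annotation release is not given in the sources used here. Strand-aware counting is not stated, so reads of overlapping and antisense genes cannot be told apart.

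Counts were analysed in R 4.3.3. Genes passing the edgeR 4.0.16 expression filter (minimum count 10, minimum total 15, proportion 0.7) were scaled by TMM and fitted with limma 3.58.1 voom in 2 rounds, with sex as a covariate and mouse as a random block (within-mouse correlation 0.0515). The fit held all 58 WT batch 1 day 2 retinas from 35 mice. Both eyes of a mouse are true pairs, and deviations of same-mouse retinas correlated from −0.0606 to 0.371 (median 0.213, 6 of 8 above 0.1). DEGs had a Benjamini-Hochberg FDR under 0.05. edgeR's quasi-likelihood test and DESeq2 1.42.0 were alternatives, and the limma fit was tested on simulated data. Members, comparisons and gene lists were chosen with earlier results of these data known. Named genes were the 10 with the smallest FDR in each direction and the 10 with the highest and the lowest log2 fold change among DEGs of at least 1 CPM on average, plus members of the lists. No library went against its labelled sex, and the smallest chi-square per gene between libraries of a group was 8.51, so none was a duplicate. Promoters came from RefSeq (GRCm38.p6). Results for some genes are not reported here.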

Additional observations from a re-analysis of the deposited data

Results flagged for a closer look

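Among the 10 IL1A+TNF retinas, a value was singled out where the highest or lowest retina lay apart from the rest by more of the range of the group than the Dixon critical value allows. Of 283 genes and list sums examined on the log2 scale 24 met this. About 1 in 20 would do so if the items were independent and normally distributed. The items share the same 10 retinas, and some genes are members of the sums, so the count of 24 cannot be set against that rate. Gaps are given as a fraction of the range of the group. Retina 9 was the highest in Tnfaip3 (0.598), Hmgcs1 (0.49) and A930004D18Rik (0.505). Retina 2 was the lowest in Pias1 (0.508), Vegfa (0.561), Circadian clock (sum, 0.522), GABA, glycine and glutamate receptors (sum, 0.522) and Bipolar cells (sum, 0.513). Retina 2 was the highest in Ccr2 (0.54), Nlrp3 (0.467), Steap4 (0.524), Rps2 (0.474), Mcm6 (0.501), CC chemokines (sum, 0.476), Cell cycle (sum, 0.626) and Cytosolic ribosomal proteins (sum, 0.474). Retina 1 was the lowest in Cd74 (0.471). Retina 9 was the lowest in Ifit2 (0.625), Gfap (0.631), Pmaip1 (0.481), Gal (0.608), Inpp5d (0.492) and Acp5 (0.569). Retina 3 was the highest in ATF4 targets (sum, 0.53).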

How the results depend on the processing

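The number of DEGs lay between 6733 and 10226 over the alternatives, and between 9086 (without replicate 2) and 10009 (without replicate 9) when 1 IL1A+TNF retina was left out. DEGs of at least 1 in size numbered 1166, between 1093 and 1238 when 1 such retina was left out, 708 with a filter of a mean of 1 CPM and 1585 with no filter, since genes of low level are then removed or added. Without the replicate block 9778 genes were called, and with mouse as a fixed block in the 8 mice with both eyes 6733. A term for left or right eye gave 9526 DEGs, 1195 of them at least 1 in size. With library totals 10225 were called, 67.3% of them higher against 49.5% with TMM. In batch 2 the count lay between 5388 (without PBS replicate 1) and 7673 when 1 retina was left out, was 6738 without the replicate block and 6632 with edgeR. Without the block the comparison with IL1A gave 1958 genes and that with TNF 7647. For sex by treatment edgeR called 1 gene, and the cause was not tested. Alternatives chosen after seeing the data were to leave out retinas over 1000 CPM in lens markers (8376 DEGs, 1071 of at least 1) and a term for the pigment epithelium sum (9601 and 1266). Of 5733 values of named genes under 26 alternatives 5650 kept direction and side of the threshold, 57 lost the call, 22 gained one and 4 reversed: Cxcl1 (−0.45) and Cxcl2 (−0.40) with mouse as a fixed block, and C2 (0.034) and Gpnmb (1.17) with the pigment epithelium term. The cause was not tested. Genes below the count filter were not tested at this depth.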
